A study of Homo sapiens with 11 samples.

Results

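The genes described here encode 10 enzymes that make serine, one-carbon units, asparagine and proline: ASNS, PHGDH, PSAT1, PSPH, SHMT1, SHMT2, MTHFD2, ALDH1L2, PYCR1 and ALDH18A1. They were taken by name from a table of expected counts (estimated read totals per gene) and are 10 of its 38021 genes. All 10 were matched, and all 10 passed the filter on low counts, which left 17793 genes for testing. The cells were wild-type HEK293T, an established human embryonic kidney line, exposed for 6 h to 1 of 11 conditions. Vehicle was 0.1% DMSO. Thapsigargin (Tg, spelled Thapsigargain in the labels), an inhibitor of SERCA that empties calcium stores and stresses the endoplasmic reticulum (ER), was given at 500 nM. The code-named compound AA147 was given at 10 µM, and AA132 at 0.1, 0.3, 1, 3, 6, 10, 15 and 30 µM. Each condition had 3 libraries, 33 in all, and the labels do not say whether these came from separate cultures, so p-values measure only the spread between libraries. The series title names proteome reactivity and arm-selective activation by regulators of ER proteostasis as the subject.

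Serine is built from a glycolytic intermediate in 3 steps, catalysed in turn by PHGDH, PSAT1 and PSPH. SHMT1 in the cytosol and SHMT2 in mitochondria then split serine into glycine and a one-carbon unit carried on folate, which MTHFD2 and ALDH1L2 process further in mitochondria. ASNS makes asparagine from aspartate, while ALDH18A1 and PYCR1 act at the start and the end of proline synthesis. Several of these genes are known targets of ATF4, the transcription factor whose translation rises when the ER stress kinase PERK phosphorylates eIF2α. ATF4 is known to bind composite sites that also hold a C/EBP half-site.

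Start-site sequences are shown for 4 genes that differed in their response: ASNS, PSAT1 and MTHFD2, which had the largest folds among the members with an entry, and SHMT1, whose difference was in the opposite direction. RefSeq (GRCh38.p14) gave windows for 6 of the 10 members. Each sequence below lies in the 250 bases before the RefSeq start, without those in an exon of GENCODE v44, and runs 5′ to 3′ on the gene's strand. Capitals mark a match to the ATF4-C/EBP composite core TGATGNAA, and for ASNS only 30 bases around this match are shown because it lies in an exon of GENCODE v44.
ASNS (chr7:97872458-97872487, minus strand): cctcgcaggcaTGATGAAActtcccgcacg
PSAT1 (chr9:78296875-78297124, plus strand): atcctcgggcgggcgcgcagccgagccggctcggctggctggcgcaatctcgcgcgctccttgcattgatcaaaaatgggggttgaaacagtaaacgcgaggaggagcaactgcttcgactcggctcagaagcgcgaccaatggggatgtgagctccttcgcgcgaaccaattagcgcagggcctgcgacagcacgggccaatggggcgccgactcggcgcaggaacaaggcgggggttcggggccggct
MTHFD2 (chr2:74198365-74198609, plus strand): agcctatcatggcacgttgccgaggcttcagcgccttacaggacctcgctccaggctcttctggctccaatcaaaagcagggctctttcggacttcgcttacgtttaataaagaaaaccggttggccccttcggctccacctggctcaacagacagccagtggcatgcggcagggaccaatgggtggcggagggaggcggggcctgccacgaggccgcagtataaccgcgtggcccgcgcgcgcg
SHMT1 (chr17:18363564-18363800, minus strand): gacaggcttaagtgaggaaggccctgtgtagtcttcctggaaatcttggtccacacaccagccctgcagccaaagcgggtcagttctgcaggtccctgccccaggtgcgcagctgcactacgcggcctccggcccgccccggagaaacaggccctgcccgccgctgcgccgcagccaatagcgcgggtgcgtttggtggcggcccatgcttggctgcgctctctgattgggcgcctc
The ASNS match, TGATGAAA, began 68 bases before the start at chr7:97872469-97872476. A further RefSeq start of ASNS had no match. Searched on both strands over windows of 250 bases before and 50 after the start, TGATGNAA was in 3.62% of 35116 RefSeq windows and in 1 of the 6 members, ASNS. The NRF2 element core TGACNNNGC (13.3% of windows) was found in MTHFD2, after its start. The MYC E-box CACGTG (7.26% of windows) was found in ALDH18A1, beginning 136 bases before its start, and the ER stress element, CCAAT and CCACG with 9 bases between (0.0769% of windows), was found in none of the 6. These motifs did not overlap each other. They describe letters in a window and were not tested as binding sites.

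Library totals ran from 32.3 M to 37.96 M counts, and the second lowest was 36.4 M. Neurofilament NEFL (median 66.4 CPM, counts relative to the scaled library total), VIM (1297 CPM) and KRT8 (866 CPM), which HEK293T cells are known to express, were present. NEFM (median 46.5 CPM) and KRT18 (311 CPM), also checked as genes kept in these cells, were present too. PAX2, checked for the same reason, was scarce, with a median of 0.97 CPM (range 0.41 to 1.53). PTPRC, ALB, PECAM1 and DCN, markers of other cell types, had a median of 0 CPM, whereas the fibroblast gene COL1A1 ran from 19.7 to 49.8 CPM. Vehicle library 1 stood apart from its 2 partners for several members. It held 292 CPM of PHGDH against 222 and 226, 481 CPM of SHMT2 against 399 in both others, 88.1 CPM of SHMT1 against 74.9 and 75.1, and 0.416 CPM of ALDH1L2 against 1.95 and 1.38. Library 1 of AA132 at 10 µM was the lowest of its condition for PHGDH, PSAT1, SHMT2 and ALDH18A1. These departures were not limited to the members. Over all genes compared, chi-square per degree of freedom against the partners was 64.5 and 49.9 for vehicle library 1, beside 7.94 between them. It was 39.1 and 36.4 for AA132 10 µM library 1 (partners 6.89) and 24.8 and 23.9 for AA147 library 1 (partners 5.06). Where leaving out vehicle library 1 or AA132 10 µM library 1 changed a member's call, both values are given.

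Per length of the longest coding transcript, SHMT2 was the most abundant member in vehicle, at 198 ± 21.8 CPM per kb (SD, n = 3, as for all levels below). PSAT1 followed at 107 ± 4.24 and PHGDH at 95.5 ± 15.2 CPM per kb, and the libraries of those neighbours overlapped. The levels per kb then fell from ASNS (78.5) to ALDH18A1 (71.1), MTHFD2 (49.5), SHMT1 (31.4), PSPH (11.2), PYCR1 (4.36) and ALDH1L2 (0.152), and no other neighbours in this order overlapped. The lowest ASNS library (73.56 CPM per kb) was only just above the highest ALDH18A1 library (73.49). With the union of exons as length, PSAT1 came ahead of SHMT2, ALDH18A1 (rank 3) came ahead of ASNS (rank 4), and PHGDH dropped to rank 5. The transcript of mitochondrial SHMT2 was thus far more abundant than that of cytosolic SHMT1, and that of ALDH1L2 was scarce, with 15, 72 and 52 counts in the vehicle libraries. Under Tg, ASNS reached 292 ± 10.1 CPM per kb and rank 3, above PHGDH, and MTHFD2 reached 158 ± 4.69. With the union of exons as length ASNS was above PHGDH in vehicle already.

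Tg, as a compound known to cause ER stress, was compared with vehicle. It raised the transcripts of 8 of the 10 enzymes, from 1.78-fold for PHGDH to 3.72-fold for ASNS, and slightly lowered that of SHMT1. Differences were called at an adjusted p under 0.05 in edgeR's quasi-likelihood test with Benjamini-Hochberg adjustment over all genes tested, which called 31.2% of genes, 16.2% higher and 15.0% lower. The median log2 fold change was 1.21 over the members and 0.00 over all genes tested. The libraries of both conditions did not overlap for any of the 10 members, as for 38.2% of all genes. Together, the 10 members took 0.166% ± 0.0085 of counts in vehicle and 0.399% ± 0.0055 under Tg. These levels are relative to the library total, so a rise of these transcripts and a fall of the remaining RNA cannot be told apart.

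**Figure D1:**
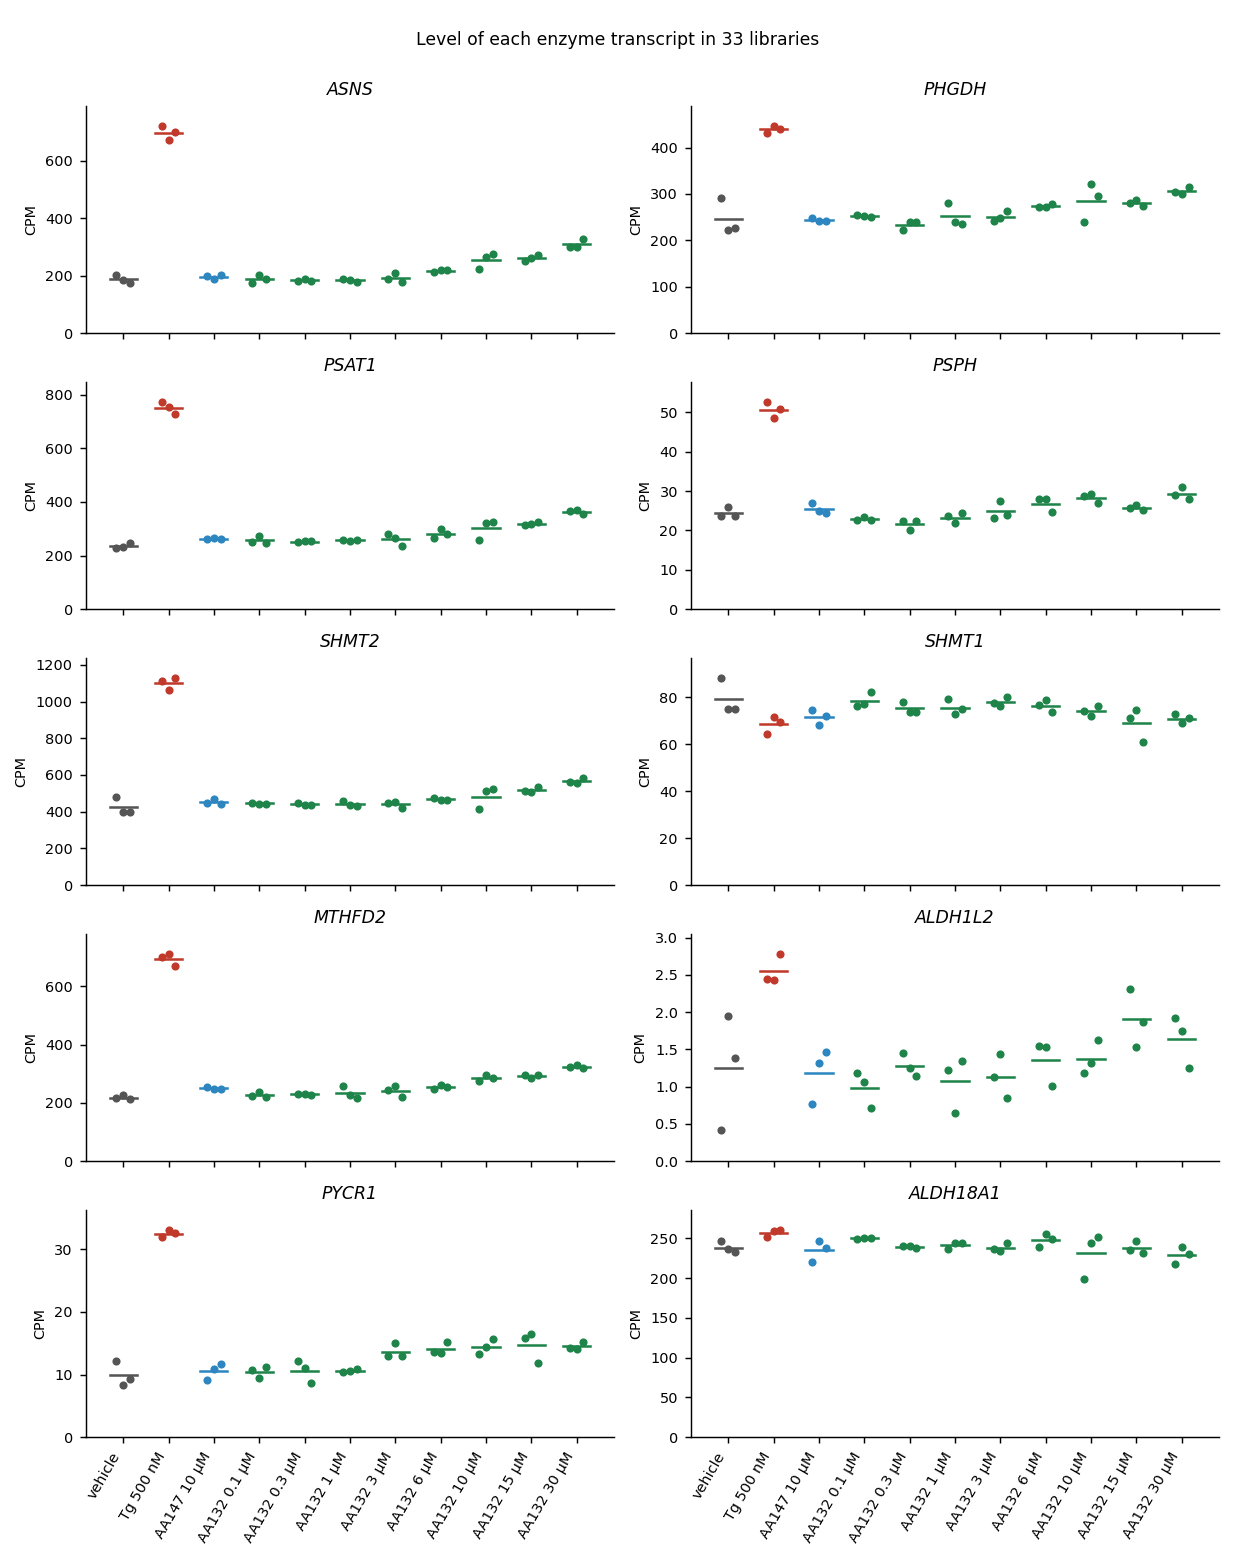
Level of each of the 10 transcripts (CPM, linear axis from 0) in 33 libraries, with 1 point per library, a line at the mean of 3, and conditions along the x axis. The Tg libraries (red) lie above all others for 8 genes, those of SHMT1 lie low, and among the AA132 doses (green) ASNS, PSAT1 and MTHFD2 are highest at 30 µM.

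ASNS, the asparagine synthetase (chromosome 7, 97851677 to 97872542, minus strand, GENCODE v44 on GRCh38, as for all positions), had 201, 185 and 175 CPM in the vehicle libraries and 719.9, 672 and 699 CPM under Tg. Every Tg library was above 3 times the highest vehicle library. Its log2 fold change was 1.90 (SE 0.07, adjusted p = 2.79e-20), the largest among the members.

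The transcripts of all 3 serine enzymes rose, PSAT1 by the largest fold and PHGDH by the smallest. PHGDH (chromosome 1, 119648411 to 119744218, plus strand), which catalyses the first and committed step, had 292, 222 and 226 CPM in vehicle and 431, 446 and 441 under Tg, a log2 fold change of 0.83 (SE 0.08, adjusted p = 9.85e-10). PSAT1, the transaminase of the middle step (chromosome 9, 78297125 to 78330093, plus strand), had 227, 233 and 246 CPM in vehicle and 771, 754 and 728 under Tg, a log2 fold change of 1.67 (SE 0.07, adjusted p = 3.13e-19). PSPH, the phosphatase of the last step (chromosome 7, 56011051 to 56051604, minus strand), had 23.8, 25.97 and 23.6 CPM in vehicle and 52.6, 48.5 and 50.8 under Tg, a log2 fold change of 1.05 (SE 0.07, adjusted p = 2.49e-13). For each of the 3, every Tg library was above every vehicle library.

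Of the folate enzymes among the members, the 3 mitochondrial ones were called higher and SHMT1, the only cytosolic one, was called slightly lower. Compartment was not tested. Mitochondrial SHMT2 (chromosome 12, 57229573 to 57234935, plus strand) had 481, 399 and 399 CPM in vehicle and 1113, 1062 and 1127 under Tg, a log2 fold change of 1.37 (SE 0.07, adjusted p = 2.92e-17). Cytosolic SHMT1 (chromosome 17, 18327860 to 18363563, minus strand) had 88.1, 74.9 and 75.1 CPM in vehicle and 64.5, 71.7 and 69.6 under Tg, a log2 fold change of -0.21 (SE 0.07, adjusted p = 0.0187). The SHMT1 call rested on 2 libraries: the adjusted p was 0.148 without vehicle library 1 and 0.0868 without Tg library 1. MTHFD2, the mitochondrial dehydrogenase and cyclohydrolase of folate intermediates (chromosome 2, 74186172 to 74217565, plus strand), had 215, 227 and 213 CPM in vehicle and 701, 710.2 and 671 under Tg, a log2 fold change of 1.67 (SE 0.06, adjusted p = 5.73e-21). It had the smallest adjusted p among the members. ALDH1L2, which oxidises formyl-folate in mitochondria (chromosome 12, 105019784 to 105107643, minus strand), had 0.416, 1.95 and 1.38 CPM in vehicle and 2.44, 2.43 and 2.78 under Tg. Its log2 fold change of 1.02 (SE 0.32, adjusted p = 0.0128) fell to 0.61, with an adjusted p of 0.111, when vehicle library 1 was left out. When the fit held only Tg and vehicle, neither SHMT1 nor ALDH1L2 was called.

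Of the proline enzymes, only PYCR1 passed the test. PYCR1 (chromosome 17, 81932384 to 81942412, minus strand), the mitochondrial reductase of the last step, had 12.1, 8.28 and 9.33 CPM in vehicle and 31.98, 33.1 and 32.6 under Tg, a log2 fold change of 1.72 (SE 0.13, adjusted p = 8.27e-13). ALDH18A1, the synthase that commits glutamate to proline and ornithine (chromosome 10, 95605941 to 95656711, minus strand), had 246, 236 and 232 CPM in vehicle and 251, 259 and 260.04 under Tg. Its libraries did not overlap, yet the log2 fold change of 0.11 (95% interval -0.02 to 0.23) did not pass the test (adjusted p = 0.197).

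**Figure D2:**
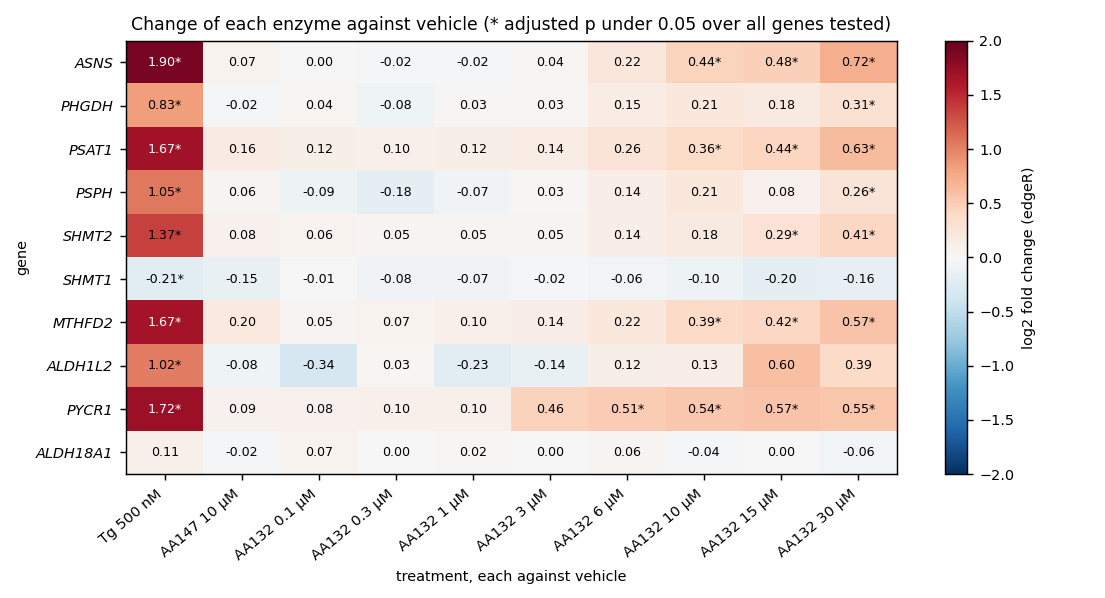
Log2 fold change of each member (rows) in each treatment against vehicle (columns), as colour and printed value, with an asterisk where the edgeR adjusted p was under 0.05. Tg carries 9 asterisks, AA147 none, and AA132 gains them from 6 µM (1 gene) to 30 µM (7 genes).

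AA132 was compared with vehicle at each dose to find where the enzymes begin to move. None of the members was called at 0.1, 0.3, 1 or 3 µM. Doses of 6, 10, 15 and 30 µM had 1, 4, 5 and 7 called members, each of them higher. The corresponding share of all genes called was 0.0%, 0.0%, 0.0%, 0.118%, 1.07%, 1.41%, 2.76% and 7.05% from the lowest to the highest dose, of which 0.866%, 1.03%, 1.97% and 3.86% were higher at the last 4 doses. Libraries did not overlap vehicle for 3, 2, 1, 1, 4, 5, 5 and 8 members in the same order, as for 7.28%, 8.25%, 7.86%, 11.2%, 14.8%, 10.3%, 16.1% and 18.9% of all genes. The median log2 fold change of the members stayed between 0.02 and 0.04 up to 3 µM and was then 0.14, 0.21, 0.35 and 0.40, beside medians within 0.01 of 0 over all genes. At 0.1, 0.3, 1 and 3 µM an unadjusted edgeR p under 0.05 was found for 0, 1, 0 and 3 members, and DESeq2 also called 0. All treatments shared the same 3 vehicle libraries, so these comparisons are not independent of each other. Calls depended on them and on the pooled spread: with only vehicle and the given dose in the fit, the counts were 0 at 6, 10 and 15 µM and 3 at 30 µM (ASNS, PSAT1 and MTHFD2). Without vehicle library 1 the counts at 6, 10 and 15 µM were 4, 6 and 6. PHGDH was among the added members at 6 µM (adjusted p = 0.0263), 10 µM and 15 µM (0.0111).

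ASNS stayed near vehicle at low doses and was higher from 10 µM on. Its mean level was 188, 184, 184 and 193 CPM at 0.1, 0.3, 1 and 3 µM, beside 187 ± 13.1 CPM in vehicle. At 6 µM the libraries held 212, 220.2 and 222 CPM, all above vehicle but not called (log2 fold change of 0.22, SE 0.07, adjusted p = 0.139). Without vehicle library 1, ASNS at 6 µM was called (adjusted p = 0.0305). The 10 µM libraries held 222, 265 and 274 CPM, those at 15 µM 252, 260.2 and 272 and those at 30 µM 300.2, 301 and 327. All 9 libraries at 10, 15 and 30 µM were above the highest vehicle library. The log2 fold change reached 0.44 (SE 0.07, adjusted p = 0.000219) at 10 µM, 0.48 (SE 0.07, adjusted p = 3.51e-05) at 15 µM and 0.72 (SE 0.07, adjusted p = 2.39e-08) at 30 µM, or 1.65-fold.

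In the serine branch, PSAT1 again led. PSAT1 held 257 ± 13.4, 252 ± 2.64 and 256 ± 3.65 CPM at 0.1, 0.3 and 1 µM, and each of those groups lay just above the vehicle libraries without being called. It had 258, 323 and 327 CPM at 10 µM and 365, 371 and 354 at 30 µM, with log2 fold changes of 0.36 (SE 0.07, adjusted p = 0.00156) and 0.63 (SE 0.07, adjusted p = 1.45e-07). PSAT1 at 6 µM missed the threshold narrowly (0.26, SE 0.07, adjusted p = 0.0518) and was called on leaving out AA132 10 µM library 1 (0.00914) or any of 5 other libraries outside the comparison (0.0379 to 0.0499). PHGDH had 240.1, 320.4 and 295 CPM at 10 µM, which overlapped vehicle, and 303, 299 and 314 CPM at 30 µM, which did not. It was called only at 30 µM (0.31, SE 0.08, adjusted p = 0.0185), and that call was lost when vehicle library 2 or 3, or AA132 30 µM library 1 or 3, was left out (adjusted p = 0.0531 to 0.103). The reverse held at 10 µM, where PHGDH was called without vehicle library 1 (adjusted p = 0.00631) or without AA132 10 µM library 1 (0.0312). PSPH had 22.3, 20.2 and 22.4 CPM at 0.3 µM, all below the vehicle libraries, with an unadjusted p of 0.0254 and an adjusted p of 0.892. PSPH at 30 µM had 28.9, 30.98 and 28.1 CPM and was higher (0.26, SE 0.07, adjusted p = 0.0259), a call lost without vehicle library 3 or without 30 µM library 1 or 2 (adjusted p = 0.0631 to 0.135) and without the filter on low counts.

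Among the folate enzymes, MTHFD2 moved at the same doses as ASNS and PSAT1. Its libraries held 246, 260.3 and 254 CPM at 6 µM, 276, 296 and 284 at 10 µM and 322, 329 and 319 at 30 µM. The log2 fold change was 0.22 (SE 0.06, adjusted p = 0.0616) at 6 µM (and called without AA132 1 µM library 1 or 3 µM library 3, adjusted p = 0.0363 and 0.0402), 0.39 (SE 0.06, adjusted p = 0.000108) at 10 µM and 0.57 (SE 0.06, adjusted p = 7.67e-08) at 30 µM. SHMT2, with 414, 511 and 524 CPM at 10 µM, 515, 509 and 537 at 15 µM and 562, 557 and 586 at 30 µM, was called at 15 µM, by 0.29 (SE 0.07, adjusted p = 0.0115), and at 30 µM, by 0.41 (SE 0.07, adjusted p = 0.00011). The SHMT2 call at 15 µM was lost without vehicle library 2 or 3 or without 15 µM library 3 (adjusted p = 0.0561 to 0.0684), and SHMT2 was called without vehicle library 1 at 6 µM (0.0405) and 10 µM (0.0121), or at 10 µM without AA132 10 µM library 1 (0.0126). SHMT1 was not called at any dose, and its log2 fold change ran from -0.01 at 0.1 µM to -0.20 at 15 µM and -0.16 at 30 µM (95% interval at 30 µM -0.30 to -0.02). Its 30 µM libraries, 72.9, 68.99 and 71.2 CPM, all lay below the vehicle libraries. Leaving out 1 library of either condition gave SHMT1 a log2 fold change from -0.20 to -0.08 at 30 µM (adjusted p = 0.0941 to 0.541). ALDH1L2 held 2.31, 1.53 and 1.87 CPM at 15 µM and 1.92, 1.74 and 1.25 at 30 µM, which overlapped vehicle. With an SE of 0.33 its log2 fold change at 30 µM, 0.39, had a 95% interval of -0.28 to 1.05 and was not called, and it was -0.024 without vehicle library 1.

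PYCR1 differed little between doses from 3 µM on. Its mean level was 10.5, 10.6 and 10.6 CPM at 0.1, 0.3 and 1 µM, close to the 9.90 ± 1.98 CPM of vehicle, and then 13.7 ± 1.21 CPM at 3 µM. From there it stayed between 13.7 and 14.7 CPM up to 30 µM. Its log2 fold change was 0.46 at 3 µM (adjusted p = 0.212), 0.51 (SE 0.13, adjusted p = 0.0424) at 6 µM and 0.55 (SE 0.13, adjusted p = 0.00628) at 30 µM. The 3 µM libraries, 12.96, 15.1 and 12.96 CPM, were all above the vehicle libraries, and PYCR1 was called there without vehicle library 1 (adjusted p = 0.0205). The 6 µM call was fragile: it was lost on leaving out vehicle library 2 or 3, any library of 6 µM or of Tg, or any of 6 other libraries outside the comparison (adjusted p = 0.0501 to 0.205). At 10 µM the PYCR1 call was lost without vehicle library 2 or 3 or 10 µM library 2 or 3 (0.0581 to 0.111). At 15 µM, where 1 library overlapped vehicle (15.8, 16.4 and 11.8 CPM), it was lost without vehicle library 2 or 15 µM library 1 or 2 (0.0517 to 0.0791). ALDH18A1 was not called at any dose, with log2 fold changes from -0.06 at 30 µM to 0.07 at 0.1 µM, which includes the 4 doses at which PYCR1 was called.

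**Figure D3:**
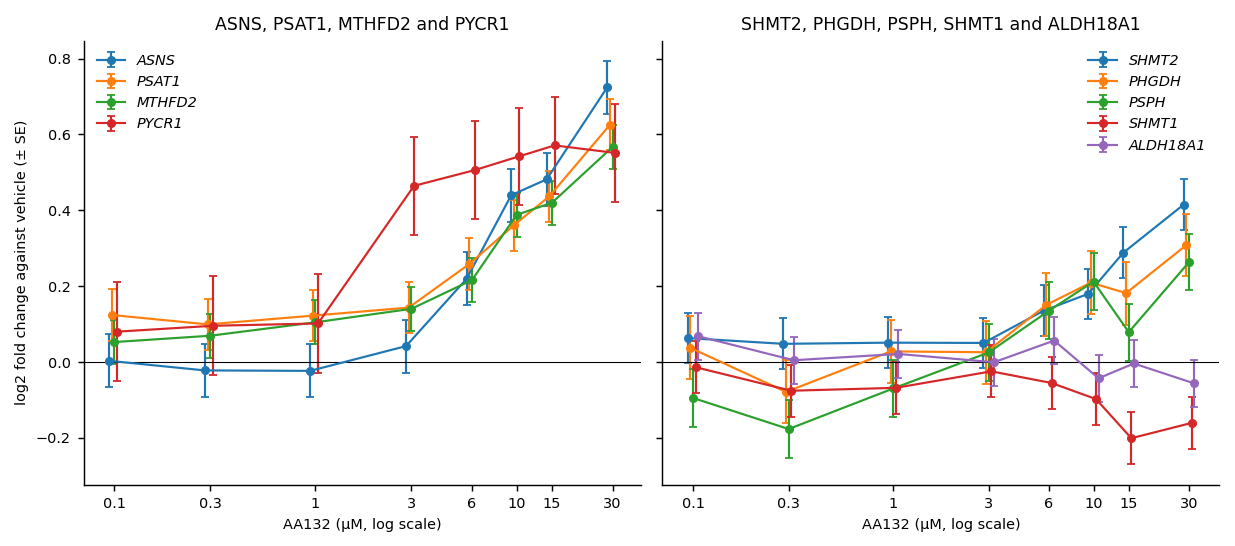
Log2 fold change against vehicle (y axis, edgeR, bars ± SE) by AA132 dose (x axis, µM, log scale) for 9 members, without the scarce ALDH1L2. ASNS, PSAT1 and MTHFD2 climb from 6 to 30 µM, PYCR1 lies between 0.46 and 0.57 from 3 µM on, and SHMT1 and ALDH18A1 remain at or below 0.07.

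AA132 at 30 µM was also set against 6 µM, a comparison added after the levels of these same libraries had been seen, so its values describe them and are no independent test. ASNS (0.50, SE 0.07, adjusted p = 0.000126), PSAT1 (0.37, SE 0.07, adjusted p = 0.0021), MTHFD2 (0.35, SE 0.06, adjusted p = 0.000657) and SHMT2 (0.28, SE 0.07, adjusted p = 0.0156) were higher at 30 µM, 4 of 10 members beside 3.59% of all genes called, 1.58% higher. PYCR1 differed by 0.05 (95% interval -0.21 to 0.30, adjusted p = 0.911). PHGDH (0.16, adjusted p = 0.335) and PSPH (0.13, adjusted p = 0.397) were not called either, and differences between genes were not tested. The SHMT2 call was lost without any 1 of the 6 µM libraries or without 30 µM library 3 (adjusted p = 0.0525 to 0.0824).

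Over the 24 AA132 libraries alone, without vehicle, the slope on log10 dose was called for 8 members, all upward, where 18.7% of 17554 genes were called and 9.83% upward. The steepest slopes, as log2 change per 10-fold dose, were those of ALDH1L2 (0.30, SE 0.09, adjusted p = 0.0123), ASNS (0.28, SE 0.03, adjusted p = 1.75e-07) and PYCR1 (0.24, SE 0.04, adjusted p = 1.45e-05). MTHFD2 (0.20), PSAT1 (0.19), PSPH (0.16), SHMT2 (0.13) and PHGDH (0.12) had lower slopes, with adjusted p from 1.7e-07 to 0.000375. Slopes were not tested against each other, and ALDH1L2 was called against vehicle at no single dose. Each slope is 1 line over 0.1 to 30 µM, while no member was called against vehicle up to 3 µM. SHMT1 (-0.05, SE 0.02, adjusted p = 0.0688) and ALDH18A1 (-0.03, SE 0.02, adjusted p = 0.23) were not called by edgeR. DESeq2 also called the SHMT1 slope, downward (-0.05, adjusted p = 0.04). The count was 8 without the 30 µM dose too, with ALDH1L2 at an adjusted p of 0.048.

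AA147 at 10 µM was compared with vehicle for its own effect, and no member was called by edgeR or by DESeq2, beside 0.0225% of all genes called by edgeR. MTHFD2, PSAT1 and SHMT1 had an unadjusted p under 0.05. MTHFD2 held 256, 247 and 247 CPM, above all vehicle libraries, with a log2 fold change of 0.20 (95% interval 0.08 to 0.31, adjusted p = 0.396). PSAT1 held 261, 265 and 262 CPM (0.16, adjusted p = 0.657) and SHMT1 74.6, 68.3 and 72.05 CPM (-0.15, adjusted p = 0.707), neither overlapping vehicle. Such separation of these 3 members compares with 7.46% of all genes. For the other 7 members the AA147 and vehicle libraries overlapped. ASNS held 200.2, 187 and 201 CPM (0.07, 95% interval -0.07 to 0.21), and a rise of the size seen with Tg lies outside the interval of every member that Tg raised.

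The matched dose of 10 µM allows AA132 and AA147 to be compared directly, over 10 genes, with p-values adjusted over all genes tested. ASNS was higher with AA132 (222, 265 and 274 CPM) than with AA147 (200.2, 187 and 201 CPM), by 0.37 (SE 0.07, adjusted p = 0.0177) on the log2 scale, 1 of 10 members beside 0.0674% of all genes called and 0.0562% called higher. That call was lost without AA147 library 2 or 3 or AA132 library 2 or 3 (adjusted p = 0.118 to 0.222) and when only these conditions were in the fit. Without AA132 10 µM library 1 the count was 3, with PHGDH (adjusted p = 0.0476) and PSAT1 (0.0153) added. For PYCR1 the difference was 0.45 (95% interval 0.19 to 0.71, adjusted p = 0.237), for MTHFD2 0.19 (0.07 to 0.31, 0.3) and for PSPH 0.15 (0.00 to 0.30, 0.619). The libraries of these 3 genes, like those of ASNS, did not overlap, as for 11.3% of all genes, yet none of the 3 passed the test. SHMT2 (0.10, -0.04 to 0.23), SHMT1 (0.05, -0.09 to 0.19) and ALDH18A1 (-0.02, -0.15 to 0.10) overlapped between the compounds. These intervals do not show that the compounds act alike on them.

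AA132 at 30 µM was also compared with Tg at 500 nM, doses that are not matched. It left 8 members lower than Tg did, beside 29.8% of all genes called, 15.5% lower. ASNS was 2.25-fold lower with AA132 (log2 difference -1.17, SE 0.07, adjusted p = 1.00e-14), PYCR1 2.24-fold (-1.17, SE 0.12, adjusted p = 5.32e-09), MTHFD2 2.15-fold (-1.10, SE 0.06, adjusted p = 4.99e-16) and PSAT1 2.07-fold (-1.05, SE 0.07, adjusted p = 5.83e-14). SHMT2 (-0.95), PSPH (-0.79) and PHGDH (-0.52) were lower by less. The call of ALDH18A1 (-0.16, SE 0.06, adjusted p = 0.0436) was lost on leaving out any library of Tg, 30 µM library 1 or 3, or any of 20 other libraries (adjusted p = 0.0501 to 0.191). ALDH1L2 (-0.64, SE 0.31, adjusted p = 0.122) and SHMT1 (0.05, SE 0.07, adjusted p = 0.639) were not called. ALDH1L2 was called lower with only the 2 conditions in the fit (adjusted p = 0.0236) and without vehicle library 1 (0.0494).

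Ratios of counts were taken for enzyme pairs that differ by compartment or gene copy. The ratio of SHMT2 to SHMT1 counts was 5.45, 5.33 and 5.32 in vehicle, 17.2, 14.8 and 16.2 under Tg, 5.97, 6.84 and 6.13 with AA147, and 7.70, 8.08 and 8.23 with AA132 at 30 µM. Vehicle libraries lay close together (SD 0.0756), and every treated library was above them in 8 of the 10 treatments, all but AA132 at 0.1 and 3 µM. These include AA132 at 0.3 and 1 µM (means 5.85 ± 0.141 and 5.83 ± 0.112), where no gene was called, and AA147, where no member was. All 10 treatments were set against the same 3 vehicle libraries, so they are not separate observations. The share of other gene pairs with such separation was not taken. The MTHFD2 to MTHFD2L ratio was 17.1 ± 3.49 in vehicle, 63.3 ± 5.03 under Tg and 23.9 ± 2.18 at 30 µM. The highest vehicle library was at 21.08 and the lowest Tg library at 57.7. AA132 at 30 and 15 µM was only just above vehicle, with lowest libraries of 21.49 and 21.55. ALDH1L2 to ALDH1L1 was 0.728 ± 0.571 in vehicle and overlapped it in all 10 treatments. Under Tg the mean log2 ratio rose by 1.90 for MTHFD2 to MTHFD2L, beside a log2 fold change of 1.67 for MTHFD2. For ALDH1L2 to ALDH1L1 it rose by 0.55, beside 1.02 for ALDH1L2. MTHFD2L thus did not rise along with MTHFD2, and ALDH1L1 did not fall along with SHMT1. Over the 30 tests of ratios against vehicle, the two-sided exact permutation p was 0.1 in the clearest cases. That is the smallest that 3 against 3 libraries allow (Benjamini-Hochberg adjusted 0.273), so none could pass 0.05.

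**Figure D4:**
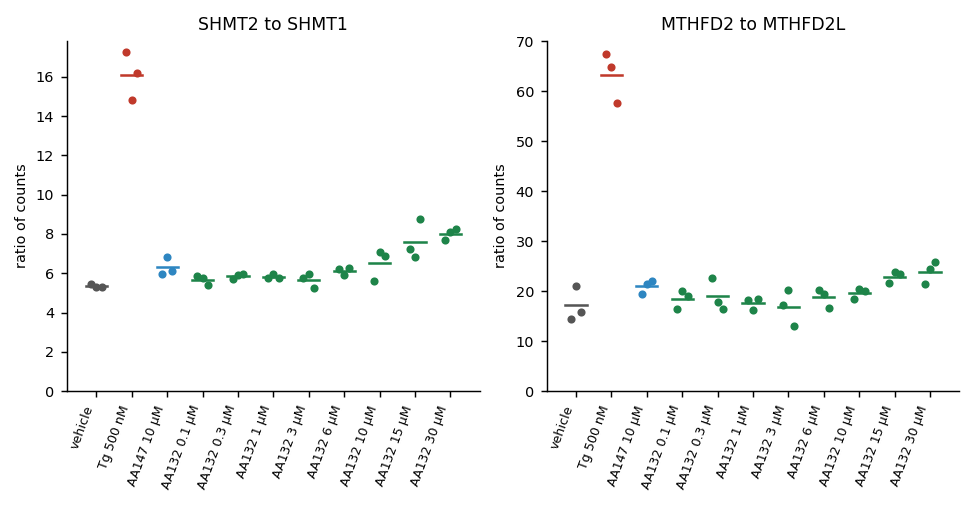
Ratio of counts (y axis, linear from 0) of SHMT2 to SHMT1 and MTHFD2 to MTHFD2L in each of 33 libraries, by condition (x axis), with a line at the mean of 3. Tg reaches mean ratios of 16.1 and 63.3, and the AA132 libraries drift upward at the highest doses.

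A list of 35 other enzymes of folate, glycine, methionine, proline and aspartate metabolism did not move as a block. All 35 were tested. Under Tg 9 were called higher and 8 lower, with a median log2 fold change of 0.07, beside 16.2% and 15.0% of all genes. The largest rises were those of CTH, which makes cysteine from cystathionine (5.82 ± 1.37 CPM in vehicle, 50.9 ± 0.422 CPM under Tg, log2 difference 3.13, SE 0.14, adjusted p = 4.49e-18), CBS, the step before it (21.6 ± 2.36 and 68.2 ± 2.21 CPM, 1.66, SE 0.08, adjusted p = 2.26e-17), and GPT2, the mitochondrial alanine transaminase (47.7 ± 4.84 and 109 ± 1.27 CPM, 1.19, SE 0.08, adjusted p = 5.54e-14). The largest falls were small: OAT, the ornithine transaminase (-0.35, SE 0.08, adjusted p = 0.000472), GLDC of the glycine cleavage system (-0.33, SE 0.08, adjusted p = 0.00287) and GLUL, the glutamine synthetase (-0.29, SE 0.06, adjusted p = 0.000406). Of the 12 folate enzymes on the list 2 rose and 2 fell. AA147 called 0 of the 35 with edgeR, where 3 had an unadjusted p under 0.05, and 0 with DESeq2. With edgeR, AA132 called 1 of the 35 higher at 6 µM (GPT2) and 1 at 10 µM (GPT2, 0.34 with SE 0.08 and adjusted p = 0.0167). It called 2 higher at 15 µM (GPT2 and CTH) and 3 at 30 µM, and edgeR called none lower. All genes were called at 1.07%, 1.41%, 2.76% and 7.05%, and 0.866%, 1.03%, 1.97% and 3.86% were higher. The 3 at 30 µM were CTH (11.6 ± 0.929 CPM, 1.00, SE 0.14, adjusted p = 1.82e-05), GPT2 (65.6 ± 1.28 CPM, 0.46, SE 0.08, adjusted p = 0.000254) and CBS (28.3 ± 0.0863 CPM, 0.39, SE 0.08, adjusted p = 0.00233). DESeq2 called 1, 2, 2 and 4 higher at 6, 10, 15 and 30 µM, and 1 lower at 15 µM and at 30 µM. The edgeR slope on log10 AA132 dose called 4 of the 35 higher and 5 lower, 3 of the lower ones folate enzymes. Over all genes 18.7% were called for the slope, 9.83% upward.

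The members differed in how closely they kept together. Across the means of log2 CPM in 11 conditions, 7 members had a Pearson r of at least 0.967 with the mean of the other 9, against 0.89 for ALDH1L2, 0.42 for ALDH18A1 and -0.72 for SHMT1. Over vehicle and the 8 AA132 doses, which leaves out Tg and AA147, r was 0.98 for MTHFD2, 0.97 for ASNS and for PSAT1, 0.84 for PSPH, 0.85 for PYCR1, -0.61 for ALDH18A1 and -0.84 for SHMT1. Among 14001 other genes with a mean of at least 1 CPM, those most like the mean of the 10 members over 11 conditions were XPOT (r = 0.998), CARS (0.998), PCK2 (0.997), AARS (0.996) and WIPI1 (0.996). Over vehicle and AA132 doses they were LYPD3 (0.997), SLC3A2 (0.996), ERP44 (0.994), CARS (0.994) and PCK2 (0.994). SLC3A2 had 208 ± 26.0 CPM in vehicle, 529 ± 19.7 under Tg and 532 ± 28.7 with AA132 at 30 µM. LYPD3 was scarce, with 1.14 ± 0.308 CPM in vehicle, 0.853 ± 0.488 under Tg and 1.60 ± 0.214 at 30 µM. The first set of r values includes the Tg point, which lies above all others for 8 members, and all points share libraries and scaling factors.

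Within conditions, the deviations of log2 CPM from the condition mean also moved together for some members over the 33 libraries. Pearson r was 0.76 for PHGDH with SHMT2, 0.72 for ASNS with SHMT2 and 0.60 for SHMT2 with ALDH18A1. It was -0.44 for ALDH1L2 with PHGDH. These are the highest values and the lowest over all pairs of members, and r for other gene pairs was not taken. Vehicle library 1 and AA132 10 µM library 1, described above, are among the 33 libraries, and the part they play in the r values was not tested.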

How the data were processed

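RNA from HEK293T cells in 11 conditions was sequenced, with 3 numbered columns per condition in the deposited table while the labels list 1 sample for each. The 3 columns were distinct beyond sampling noise (chi-square per degree of freedom 4.67 to 64.5, median 8.01 over 33 pairs) and were treated as replicate libraries. The deposited values were taken to be expected counts per gene, since 3.22% of them are fractional and library totals differ, and no scaling by the authors is recorded in the labels or the header. The genome build was GRCh38.p7, per the submitters' processing notes. The aligner, counting tool, annotation and use of strand are not given in the sources used here, so reads shared with near-identical copies or antisense genes cannot be separated. The floor value 0.009 was set to 0 and counts were rounded. Of 38074 entries, 98 sharing 45 names were summed, 28 with dates as names were kept apart, and no member had a fractional value.

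Counts were tested with edgeR 4.0.16 in R 4.3.3 (TMM scaling, filterByExpr, quasi-likelihood F-test, all 11 conditions in 1 fit, common dispersion 0.00826, a coefficient of variation of 9.09%), with Benjamini-Hochberg adjustment over all genes tested in each comparison. The slope on log10 dose used the 24 AA132 libraries. Every adjusted p is from edgeR unless another tool is named. SE is the log2 fold change over the root of F, and 95% intervals use the t quantile. Log CPM used a prior count of 2. The fit was run on simulated counts drawn independently for each library. These held no library-wide deviation like that of vehicle library 1, so they cannot show how calls hold up under it. Members and lists were chosen with earlier results of these data known. All 10 members were described, and 2 of the other enzymes first listed are not reported here. From the other enzymes up to 3 called rises and falls were named for Tg, AA147 and AA132 at 10 and 30 µM, and the 5 most correlated genes for each set of conditions. Alternatives were RLE size factors, DESeq2 1.42.0, no filter, only the conditions compared, a threshold of 1 on the absolute log2 fold change, the column number as a replicate block, no 30 µM dose, exon-union length, and leaving out each library. Library totals of 32.3 M to 37.96 M give small counting errors for all members but ALDH1L2.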

Additional observations from a re-analysis of the deposited data

How the results depend on the processing

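Counts of called members kept within 1.5 times their reported value for Tg, AA147 and AA132 at 0.1, 0.3 and 1 µM under every alternative tried. A minimum absolute log2 fold change of 1 gave 0 at 6, 10, 15 and 30 µM, 0 for AA132 against AA147, 0 for 30 against 6 µM, 0 for the slope and 4 for 30 µM against Tg. With only the compared conditions in the fit, counts were 0 at 6, 10 and 15 µM, 3 at 30 µM and 0 for AA132 against AA147. At 6 µM, where 1 member was called, RLE size factors and no filter each gave 2 and DESeq2 gave 3. No filter gave 1 at 3 µM.

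Leaving out each of 33 libraries in turn gave 7 to 9 members for Tg, 0 to 1 at 3 µM, 0 to 4 at 6 µM, 3 to 6 at 10 µM, 3 to 6 at 15 µM, 5 to 7 at 30 µM, 0 to 3 for AA132 against AA147, 7 to 9 for 30 µM against Tg and 3 to 4 for 30 against 6 µM. The slope count was 8 on leaving out each of the 24 AA132 libraries. These omissions reversed only changes that were not called. With AA147 the log2 change ran from -0.059 (without AA147 library 2) to 0.020 (without library 1) for ALDH18A1, from -0.10 (without vehicle library 2) to 0.12 (without vehicle library 1) for PHGDH, from -0.49 (without vehicle library 1) to 0.38 (without vehicle library 2) for ALDH1L2 and from -0.027 (without vehicle library 2) to 0.26 (without vehicle library 1) for PYCR1. ALDH1L2 ran from -0.28 to 0.59 at 10 µM and from -0.024 to 0.85 at 30 µM, lowest without vehicle library 1 and highest without vehicle library 2. ALDH18A1 at 10 µM ran from -0.11 (without 10 µM library 3) to 0.049 (without library 1). For AA132 against AA147, ALDH18A1 ran from -0.091 to 0.072 on the same omissions, and ALDH1L2 from -0.020 (without AA147 library 1) to 0.39 (without AA147 library 3). Causes were not tested.

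Libraries with the same number did not deviate together (median r 0.00061 over 165 pairs, 2 of them over 0.1, range -0.147 to 0.183), so the numbers were not taken as pairs. A replicate block gave the same counts: 9 for Tg, 1 at 6 µM, 4 at 10 µM, 5 at 15 µM, 7 at 30 µM, 8 for 30 µM against Tg and 8 for the slope, though at 6 µM the called member was MTHFD2 (adjusted p = 0.0441) in place of PYCR1. Depth limits ALDH1L2, with 15 to 72 counts in vehicle.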
